A study of Drosophila melanogaster with 30 samples.

Results

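The genes described here are 60 protein-coding genes of Drosophila melanogaster that carry only a CG number, a provisional identifier, in the deposited tables, and that had less RNA in the midgut of both Hr96 strains. They were chosen from 7317 CG genes with a usable estimate in all 30 libraries, out of 17488 genes in the tables. A gene was taken if, in each of the 2 midgut regions, the highest of the 6 libraries of the Hr96 strains lay below the lowest of the 3 control libraries. The mean of those 6 libraries also had to be at most 50% of the control mean, and the control mean at least 2. The fall from control to the strains, in both regions, is therefore how the genes were found. It is given below as a description with no test.

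Hr96 is a nuclear receptor, a transcription factor controlled by small lipophilic molecules, and in flies it responds to cholesterol. Insects cannot make sterols and take them from food, and the midgut absorbs them together with fat through its enterocytes. Hr96 is known for acting on genes of lipid digestion and sterol uptake in this tissue. Enteroendocrine cells, progenitor cells and a sleeve of visceral muscle are the other main parts of the organ.

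Poly(A) RNA was sequenced from 2 dissected parts of the midgut, subregions a1-3 (anterior) and p1-4 (posterior), of adult females. The females were 10 to 12 days old, fertilized, kept with males at 25 °C, and had been moved to their diet as pupae. Wild type was y[1]w[1], on 1 of 3 foods: control, lipid-depleted, or with 0.2% cholesterol, which is 4 times the control level. TI{TI}Hr96[1] (Hr96[1] below) and Hr96[2x] flies ate the control diet, and the series calls both mutants. How the strains were made, and whether their other chromosomes match those of y[1]w[1], was not given in the sources used here, so the allele and the strain's other genes cannot be told apart. Each of the 10 groups has 3 libraries, and a library pools 30 to 50 midgut pieces. Nothing in the labels says that replicates are separate cultures or animals, and p-values here measure only the spread between these samples, possibly a technical one.

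Levels are FPKM, the abundance of a transcript corrected for its length and for library size, divided by 1 scaling factor per library and called scaled FPKM. Differences are on the log2(scaled FPKM + 1) scale, which understates the changes of weakly expressed genes. Without read counts in the tables the absolute depth stays unknown, and 9841 to 13279 genes were above 0 per library. Hr96 itself stood at 43.4 to 67.9 in anterior and 57.8 to 65.2 in posterior control libraries. In Hr96[1] it stood at 33.9 to 42.1 and 27.9 to 38.1, below every control library of the same region. In Hr96[2x] it stood at 69.3 to 80.0 and 63.7 to 80.3, so the anterior libraries lay above control and the posterior ones overlapped it. Wild type on the lipid-depleted diet stood at 121 to 179 and 96.1 to 120, and on high cholesterol at 84.9 to 172 and 68.9 to 143. Every library of these 2 diets thus lay above every control library of its region. A transcript level does not show whether the receptor works.

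Sums of cell type markers, none of them among the 60 genes, also moved with the groups. The summed level of 11 visceral muscle markers was 732 to 889 in anterior Hr96[1] against 462 to 514 in control, and 1168 to 1313 against 599 to 755 in the posterior midgut. In Hr96[2x] it was 336 to 706 and 551 to 1246. The 12 enteroendocrine markers summed to 1027 to 1337 in posterior Hr96[2x] against 207 to 378 in control, and to 379 to 407 against 104 to 317 in anterior libraries. The 3 enterocyte markers found of 7 summed to 621 to 809 in anterior Hr96[1] against 909 to 1456 in control, and to 516 to 693 against 935 to 1123 in the posterior midgut, so every Hr96[1] library lay below control. In Hr96[2x] they summed to 788 to 1069 and 779 to 1156. The 6 Malpighian tubule markers reached 31.0 to 237 in posterior Hr96[1] against 1.65 to 16.7 in control. The part of these shifts in the results was not tested. In bulk samples fewer cells of a type and less RNA per cell cannot be told apart.

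Control replicate 1 stood apart: the summed level of 7 fat body markers was 1611 in its anterior and 1894 in its posterior library, against 156 to 195 and 101 to 159 in the other control libraries. In posterior Hr96[2x] it was 23.8 to 67.6, below every control library. The fat body sum was uneven in other groups too. In Hr96[1] replicate 1 it was 618 anterior and 477 posterior, against 178 and 180 and 11.2 and 20.5 in the other replicates. In high-cholesterol replicate 2 it was 624 anterior and 429 posterior. Of the 60 genes, 26 were highest in control replicate 1 in both regions, and 7 exceeded the mean of the other control libraries at least 1.5 times in both. These 7 include CG42825, CG16965, CG42335, CG31705 and Fatp3 (CG3394). No share over all tested genes is given for these counts. With control replicate 1 left out of the control mean, 53 of the 60 genes still had a strain mean of at most 50% of control in both regions. The strain mean then reached at most 61.1% of control in anterior and 62.3% in posterior libraries, both in Tmem131 (CG8370).

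Over the 60 genes, the mean of both strains ran from 0.0740% to 49.6% of control in the anterior midgut, with a median of 34.0%. In the posterior midgut it ran from 0.0232% to 48.3%, with a median of 30.2%. The median log2 difference was −1.45 anterior and −1.52 posterior, against 0.01 in each region over all 8335 genes tested. The strain mean was at or under 20% of control in 12 genes in the anterior midgut, in 14 in the posterior midgut and in 7 in both. Control means spanned 2.11 to 4904 in the anterior and 2.65 to 6537 in the posterior midgut, so the set holds both scarce and abundant transcripts. Of all 8335 tested genes, 134 (1.61%) met the same numbers whatever their name, and 31 CG genes met the mirrored rule, higher in both strains.

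**Figure D1:**
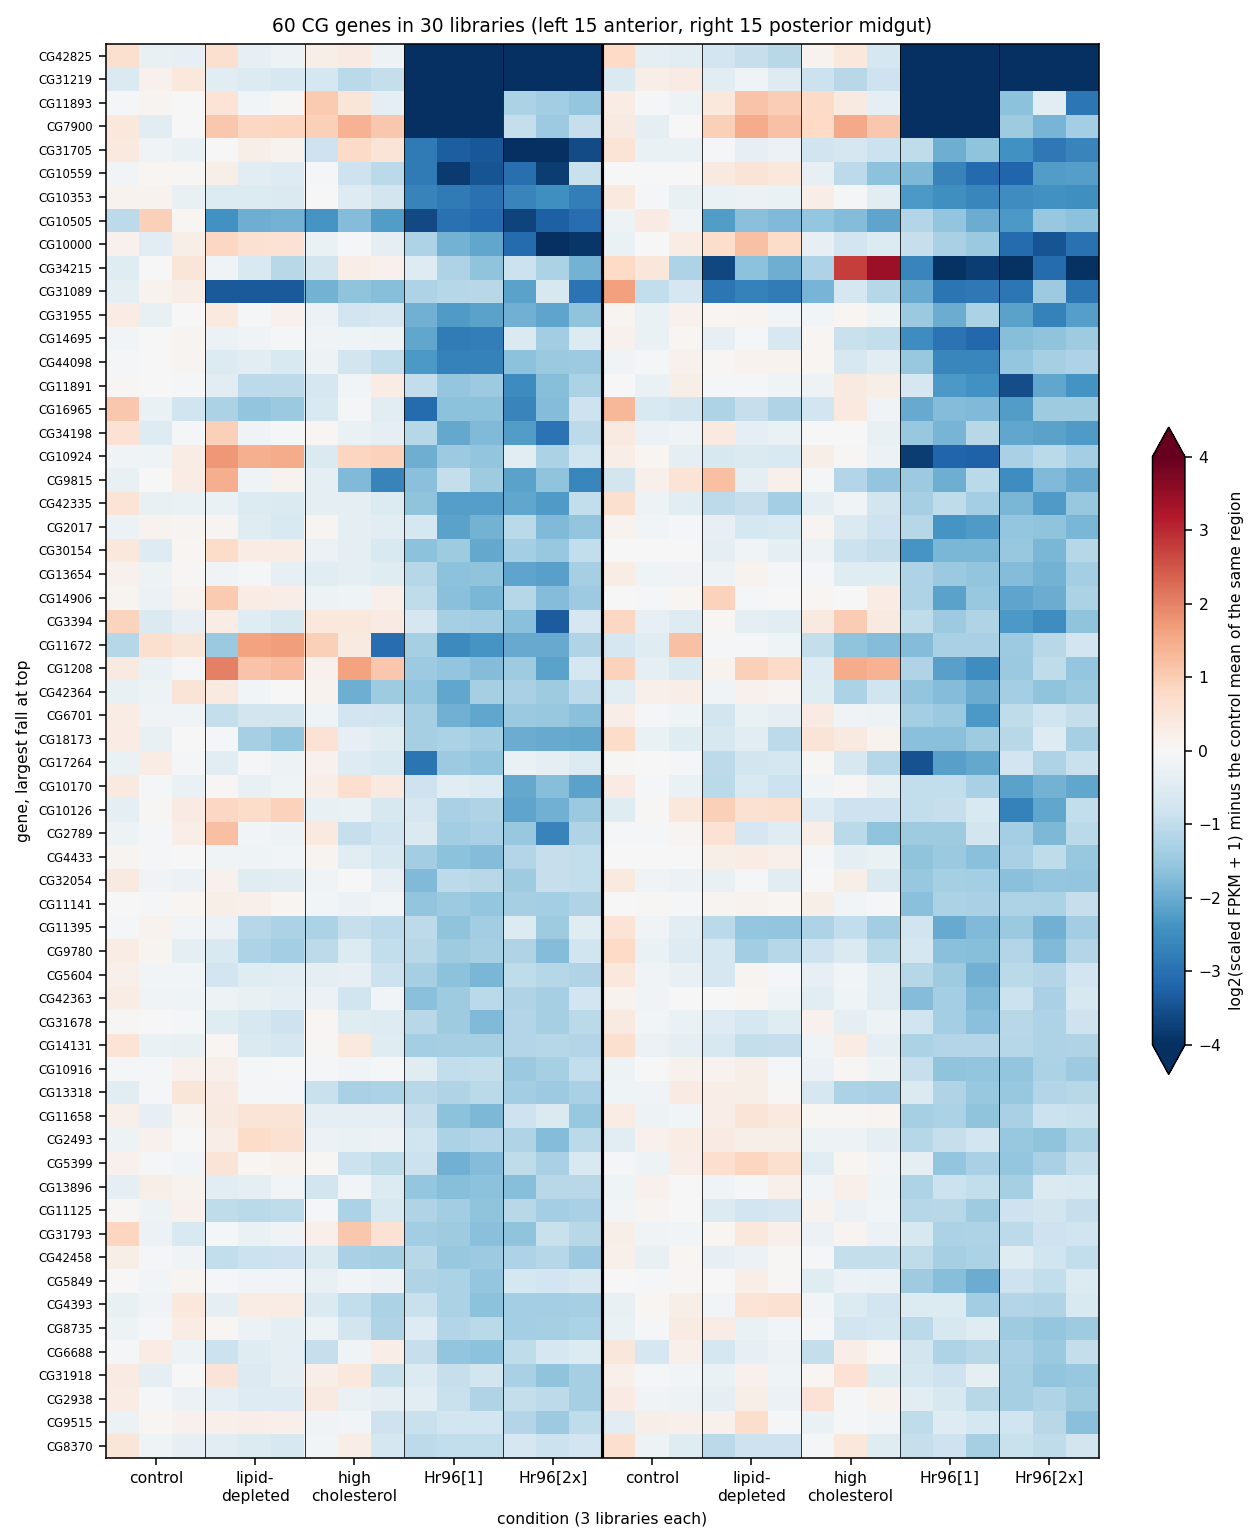
Each cell is 1 library, with 30 libraries in columns and 60 genes in rows, and the colour gives log2(scaled FPKM + 1) minus the control mean of the same region, with the scale ending at 4 in each direction. The Hr96[1] and Hr96[2x] columns are blue throughout because the genes were chosen so; CG31219 and CG42825 are darkest in both strains, CG11893 and CG7900 in Hr96[1].

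The gene with the highest posterior control level, CG42825 (Srg2 in the current annotation; FBgn0262007, dm6 chr3L:10095754-10098115, minus strand), fell most among abundant transcripts. Its anterior level was 4419, 2328 and 2262 in control, 60.4, 163 and 166 in Hr96[1], and 150, 142 and 142 in Hr96[2x]. Its posterior level was 10393, 4689 and 4527 in control, 142, 204 and 192 in Hr96[1], and 252, 164 and 216 in Hr96[2x]. The strain means were thus 4.57% and 2.98% of control, and both strains sat together at this low level. Without control replicate 1 the shares were 5.98% and 4.23%. On the lipid-depleted diet its anterior libraries stood at 4429, 2276 and 2468, and its posterior ones at 3554, 3164 and 2825. On high cholesterol it stood at 3340, 3615 and 2499 anterior and at 6641, 8023 and 3706 posterior. The lowest wild-type library, whatever the diet, stood at 2262 and the highest strain library at 252. CG42825 lies within the span of dpr6, and the library kit does not mark strand, so reads of overlapping genes cannot be told apart by strand.

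CG31219 (FBgn0051219, chr3R:19651018-19652430, plus strand) was listed at 0 in 9 of the 12 strain libraries. In control its anterior libraries stood at 12.9, 22.4 and 26.8, and its posterior ones at 12.4, 23.0 and 24.6. All 6 Hr96[1] libraries were at 0, and the Hr96[2x] values above 0 were 0.0351 and 0.0567 in anterior libraries and 0.0279 in a posterior one. Both diets kept it well above that, at 12.3 to 16.8 on the lipid-depleted diet and 8.38 to 11.8 on high cholesterol over both regions. No other member was listed at 0 in as many as 6 strain libraries.

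CG11893 and CG7900 separated the strains from each other. CG11893 (FBgn0039316, chr3R:25289889-25291366, plus strand) stood at 349, 393 and 359 in anterior control. It was 0.639, 0.241 and 0.0983 in anterior Hr96[1] but 152, 139 and 124 in anterior Hr96[2x]. In the posterior midgut it was 105, 80.0 and 73.0 in control, 0.818, 0.270 and 0.842 in Hr96[1], and 26.9, 63.0 and 10.7 in Hr96[2x]. Its transcript was therefore close to absent in Hr96[1] and at 37.7% and 38.9% of control in Hr96[2x].

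CG7900 (FBgn0037548, chr3R:8094124-8105083, plus strand) showed the same order. Anterior levels were 151, 81.6 and 115 in control, 1.29, 0.380 and 0.756 in Hr96[1], and 57.0, 40.5 and 59.2 in Hr96[2x]. Posterior levels were 76.6, 46.6 and 59.5 in control, 1.12, 1.55 and 0.785 in Hr96[1], and 21.6, 15.6 and 22.9 in Hr96[2x]. The Hr96[1] mean was 0.698% of control anterior and 1.89% posterior, against 45.1% and 32.9% in Hr96[2x].

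CG31705, CG10559, CG10353 and CG10505 completed the 8 largest falls. CG31705 (chr2L:11523021-11528205) was 144 ± 37.5 (SD, n = 3) in anterior control, 15.1 ± 3.55 in Hr96[1] and 7.34 ± 3.09 in Hr96[2x]. Posterior means were 28.5 ± 10.1, 9.29 ± 3.51 and 3.62 ± 0.720. CG10353 (chrX:11877737-11887162), 1 of 2 members on the X chromosome, was 79.3 ± 13.1 in anterior control, 10.3 ± 1.24 in Hr96[1] and 12.0 ± 1.53 in Hr96[2x]. Its 3 posterior means were 55.2 ± 14.4, 9.14 ± 1.07 and 9.09 ± 0.271. Both strains kept this gene at about the same level, 12.9% to 16.6% of control.

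CG10559 (chr3R:25314494-25316116) was 124, 141 and 137 in anterior control, 18.0, 8.51 and 11.3 in Hr96[1], and 15.8, 8.59 and 71.0 in Hr96[2x]. Replicate 3 of Hr96[2x] is the high library, and it still lies below every control library. CG10505 (chr2R:21285248-21290343) was 160, 636 and 349 in anterior control and 24.2 to 40.5 over both strains. Posterior CG10505 was 28.2, 41.3 and 29.6 in control and 5.77 to 14.0 over both strains.

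**Figure D2:**
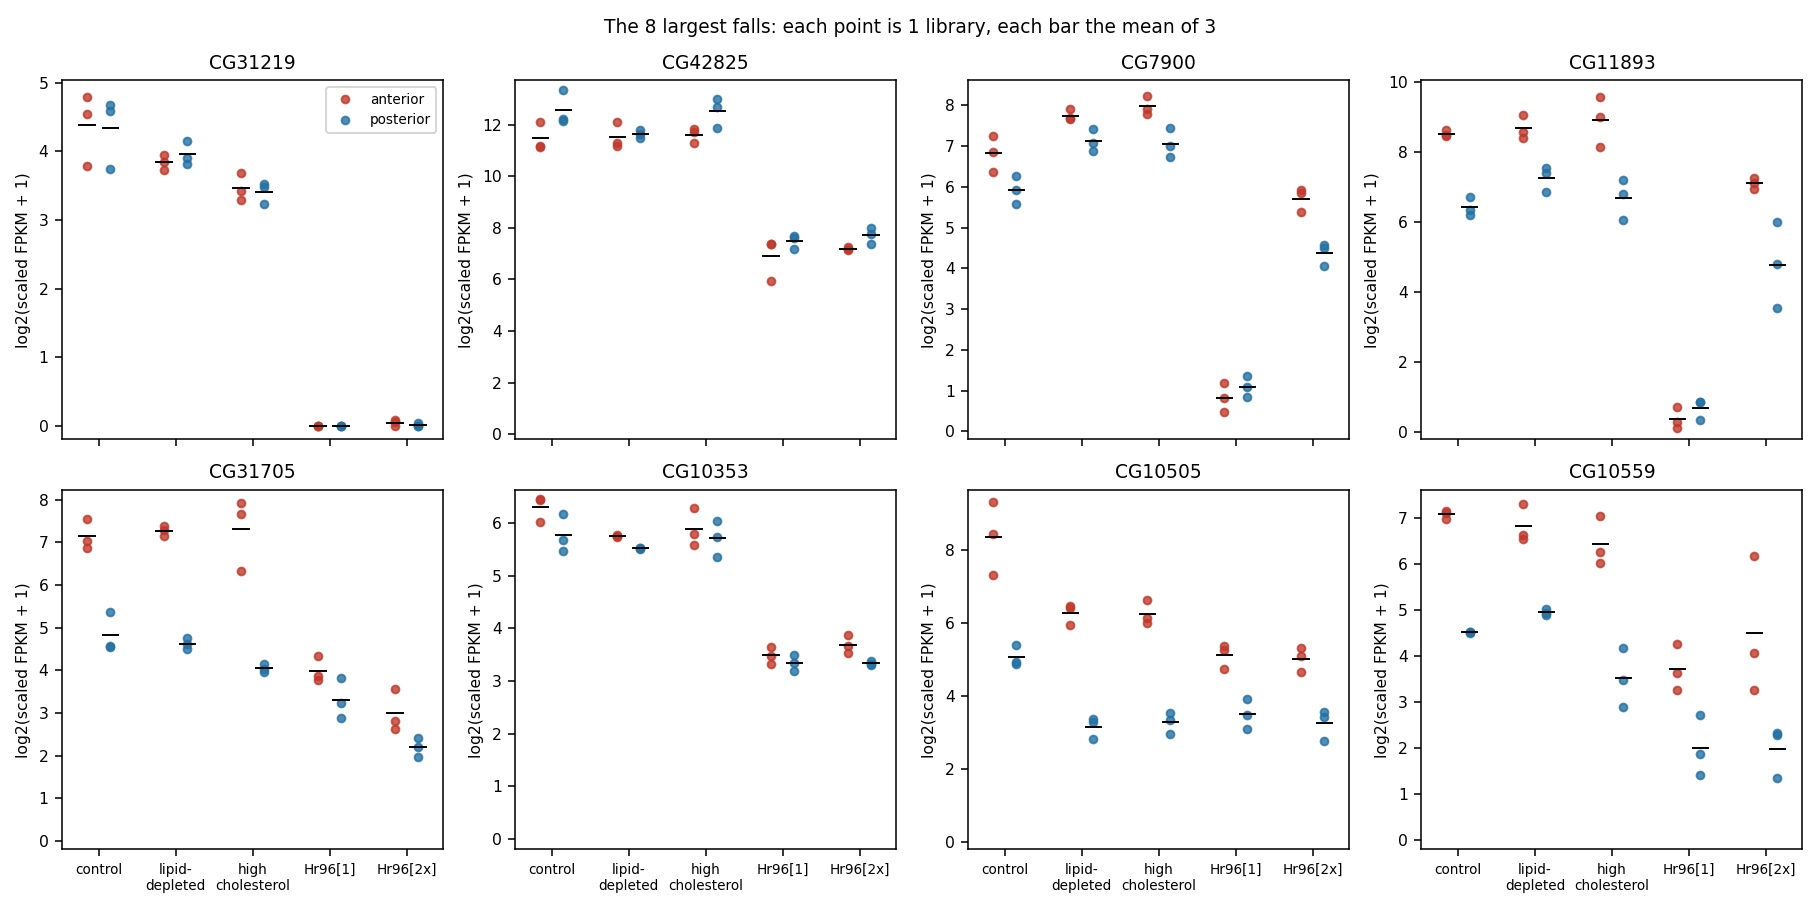
The 8 members with the largest fall, as log2(scaled FPKM + 1) in each of 30 libraries by condition, anterior in red and posterior in blue, with a bar at the mean of 3 libraries. CG31219 sits at or near 0 in every strain library, CG7900 and CG11893 near 0 in Hr96[1] and not in Hr96[2x], and CG10505 is also lower on both diets than on the control diet.

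The most abundant members besides CG42825 fell less. CG5399 (chr3R:15695241-15697142) was 5557, 4638 and 4518 in anterior control, 2702, 1301 and 1480 in Hr96[1], and 2407, 2000 and 3192 in Hr96[2x], a strain mean of 44.5% of control. The posterior strain mean was 45.9% of a control mean of 2000 ± 340. Tspo (CG2789, chr2L:559612-560523), a protein of the outer mitochondrial membrane that binds cholesterol, was 1235, 1359 and 1696 in anterior control. It was 939, 535 and 576 in anterior Hr96[1] and 490, 223 and 612 in Hr96[2x]. Posterior control was 1566 ± 116, Hr96[1] 703 ± 206 and Hr96[2x] 596 ± 146, so the strain mean was 39.3% of control anterior and 41.5% posterior. Tspo overlaps the annotated gene rempA, which lies on the opposite strand. The strain mean of rempA was 33.6% of control anterior and 40.5% posterior, at control means of 14.3 and 9.53.

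CG42335 (chr3R:21758764-21769301) was more abundant in the posterior midgut, at 613 ± 257 in control, 249 ± 33.6 in Hr96[1] and 162 ± 41.8 in Hr96[2x]. CG34198 (chr2R:19682446-19682977) was 493 ± 116, 174 ± 45.3 and 108 ± 7.01 there. CG16965 (chr2L:11981591-11984380) was 676, 267 and 186 in anterior control and 385, 99.6 and 91.6 in posterior control. Replicate 1 is the high library in both, and without it the CG16965 strain mean was 41.9% of control anterior and 46.9% posterior, in place of 25.2% and 23.3%.

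Of the 60 genes, 14 have a name other than their CG number in the current annotation, and the others have none there. Beside Srg2 and Tspo these are Pepck2 (CG10924), a phosphoenolpyruvate carboxykinase of gluconeogenesis, and Fatp3 (CG3394), a fatty acid transport protein. PIG-L (CG4433) and PIG-Wb (CG18173) act in the synthesis of glycosylphosphatidylinositol membrane anchors, and Ugt303B3 (CG10170) is a UDP-glycosyltransferase, an enzyme that joins sugars to small lipophilic compounds. Nepl3 (CG31918) and Nepl11 (CG9780) are neprilysin-like metallopeptidases, Gbp2 (CG11395) is a growth-blocking peptide, and Ufd4 (CG5604) is a ubiquitin ligase. Lnpk (CG8735), Mettl4 (CG14906) and Tmem131 (CG8370) are the rest. The named genes are given because they have a name, which was seen after their values.

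Among these named genes the strain mean was 38.1% of control anterior and 24.5% posterior for Pepck2, and 35.5% and 29.6% for Fatp3. It was 40.6% and 36.7% for PIG-L, and 31.6% and 39.7% for PIG-Wb. Pepck2 stood at 85.8, 75.5 and 54.7 in posterior control, at 4.11, 7.01 and 6.66 in Hr96[1], and at 28.0, 33.1 and 27.0 in Hr96[2x]. Hr96[1] thus held the lowest Pepck2 level of the posterior groups. The adjacent gene Pepck, named here after its values were seen, went the other way. Its mean was 18.5 in anterior control and 37.1 over both strains, and 35.8 and 174 in the posterior midgut. The strain mean of Pepck was thus 201% of control anterior and 485% posterior, so the fall was in Pepck2 and not in Pepck. Fatp3 was 137, 59.8 and 52.9 in posterior control, and without control replicate 1 its strain mean was 54.3% of control anterior and 43.6% posterior.

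At the edge of the rule, the members closest to the 50% limit were CG2938, at 49.6% of control anterior and 48.1% posterior, and CG17264, at 49.4% and 33.3%. Just outside lay CG4091, at 50.7% and 48.7%, and CG18869, at 53.7% and 45.7%. With the limit at 33.3% of control in place of 50%, 24 of the 60 genes remained.

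The wild-type diets were not part of the rule, but the control libraries were, because a gene was taken partly for being high in them. Diet against control is therefore described with no test. All 3 lipid-depleted libraries lay below all 3 control libraries in 18 of 60 genes in the anterior midgut, against 11% of all 8335 genes tested, and in 18 posterior, against 13.3%. All 3 lay above control in 9 genes anterior, against 9.84%, and in 8 posterior, against 9.38%. On high cholesterol all 3 libraries lay below control in 19 genes anterior, against 10.4%, and in 15 posterior, against 6.53%. They lay above control in 1 gene anterior, against 11.1%, and in 1 posterior, against 7.16%. Without control replicate 1 those counts of genes above control were 6 and 5. No share over all tested genes is given without that replicate, so nothing is read from the change. The median log2 difference from control over the 60 genes was −0.17 anterior and −0.10 posterior on the lipid-depleted diet, and −0.34 and −0.18 on high cholesterol. Over all tested genes these medians were −0.02, −0.02, −0.00 and 0.01.

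Wild-type flies on either diet mostly kept these genes above the strains. All 3 lipid-depleted libraries lay above all 6 strain libraries in 49 genes anterior, against 10.5% of all tested genes, and in 49 posterior, against 10.8%. All 3 high-cholesterol libraries did so in 38 genes anterior, against 8.58%, and in 44 posterior, against 8.65%. In 30 genes both diets were above both strains in both regions, against 2.5% of all tested genes. On FPKM as deposited, without scaling, 19 genes did so, with no share over all tested genes given on that scale. Since the rule chose genes for low strain libraries, nothing is read from these shares about the diets themselves.

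CG7900 was the gene above control on high cholesterol in both regions, and it was above control on the lipid-depleted diet as well. Its anterior level was 238, 201 and 204 on the lipid-depleted diet and 219, 299 and 241 on high cholesterol, against 81.6 to 151 in control. Its posterior level was 117, 170 and 135 and 105, 173 and 127, against 46.6 to 76.6. The gene thus stood above control on both wild-type diets and near 0 in Hr96[1].

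CG10505 went the other way and was low on both diets. It stood at 60.5, 84.4 and 87.1 in anterior lipid-depleted libraries and at 62.6, 98.7 and 69.6 on high cholesterol, below every control library and above every strain library. Its posterior values were 6.07, 9.43 and 8.79 and then 10.6, 9.17 and 6.79, within the range of the strain libraries. The log2 difference from control was between −2.11 and −1.79 in all 4 diet groups.

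CG31089 (chr3R:25902643-25904178), on the list of digestive lipases, was lowest on the lipid-depleted diet. It was listed at 0 in all 3 anterior lipid-depleted libraries and at 0.0155, 0.157 and 0.0998 in the posterior ones. Anterior control was 6.70, 10.3 and 11.1, high cholesterol 1.73, 2.36 and 2.12, Hr96[1] 3.35, 3.59 and 3.68, and Hr96[2x] 1.31, 5.55 and 0.315. The anterior lipid-depleted libraries were thus below those of both strains. Posterior control was 22.6, 2.87 and 3.76, with replicate 1 the high library, and the strain libraries ran from 0 to 1.75. The posterior lipid-depleted libraries lay within that range. The gene overlaps an annotated antisense RNA.

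Other large diet differences from control were in CG1208, Pepck2 and CG34215. CG1208 (chr3R:5831639-5838782) was 194, 106 and 114 in anterior lipid-depleted libraries against 60.8, 39.2 and 45.2 in control. Pepck2 was 32.2, 26.2 and 27.5 in anterior lipid-depleted libraries against 8.22, 7.97 and 11.4 in control, while posterior lipid-depleted libraries, at 45.1, 47.5 and 46.1, lay below the posterior control. Lipid-depleted food therefore went with more Pepck2 RNA than control in one region and less in the other. CG34215 (chr2R:6831296-6831793), which overlaps CG15236, was 26.0, 20.03 and 5.52 in posterior control, 0.249, 4.00 and 2.98 on the lipid-depleted diet and 5.59, 103 and 165 on high cholesterol. Of its 3 high-cholesterol libraries, 2 were high and replicate 1 was at the level of the lowest control library.

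The contrast of high cholesterol with lipid depletion uses neither control nor strain libraries. The spread behind its p-values came from all 30 libraries, those that chose the genes included. The test is thus not fully free of the choice of genes. In the anterior midgut 10 of 60 genes were lower on high cholesterol and 0 higher at an adjusted p under 0.05, by limma with Benjamini-Hochberg adjustment over all 8335 genes. Of all tested genes 2.95% were lower and 3.24% higher at an adjusted p under 0.05, 6.19% in all. At an unadjusted p under 0.05, 15 of the 60 were lower and 5 higher. The share over all tested genes was not taken at that threshold, so nothing is read from these counts. Posterior libraries gave 5 lower genes, against 3.67%, and 3 higher, against 5.53% (9.2% in all). The median log2 difference over the 60 genes was −0.11 anterior and −0.08 posterior, against 0.03 in each region over all tested genes. On FPKM as deposited the median of all genes shifted by −0.57 anterior and −0.31 posterior, and the split of members was then 27 lower and 1 higher anterior and 14 lower and 2 higher posterior. The anterior count was 2 without lipid-depleted replicate 3 or without high-cholesterol replicate 3, so its size rests on single libraries. With the spread taken from the compared groups alone, 4 members were lower and 1 higher anterior, and 4 lower and 2 higher posterior.

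CG13318, CG10126 and CG10000 were lower on high cholesterol in both regions. CG13318 (chr3R:8771246-8772691), a scarce transcript, was 3.03, 1.99 and 2.05 in anterior lipid-depleted libraries and 0.725, 0.298 and 0.329 on high cholesterol. The difference was −1.21 (SE 0.241, adjusted p = 0.00414) anterior and −1.26 (SE 0.241, adjusted p = 0.00155) posterior, by limma. CG10126 (chr3R:12855544-12859246) was 78.7, 72.6 and 84.1 against 35.3, 36.1 and 27.3 in the anterior midgut. Its difference was −1.24 (SE 0.302, adjusted p = 0.0155) anterior and −1.45 (SE 0.302, adjusted p = 0.00349) posterior, by limma. CG10000 (chr3R:28748384-28751661) was 72.1, 100.04 and 72.4 on the lipid-depleted diet against 34.0, 24.9 and 29.7 on high cholesterol in the posterior midgut. Its difference was −1.43 there (adjusted p = 0.00106) and −0.91 in the anterior midgut (adjusted p = 0.0396), by limma. In all 3 genes the diet groups did not overlap in either region, and their control levels lay between those of the 2 diets or overlapped one of them.

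Other members were called in 1 region. CG9815 had the largest anterior fall, −2.08 (SE 0.524, adjusted p = 0.0190 by limma), from 18.5, 5.45 and 6.94 to 4.59, 1.11 and 0.125. Its replicates spread widely on both diets. CG2493 fell by 0.78 (adjusted p = 0.0125) in the anterior midgut. CG34215 rose by 4.06 in the posterior midgut (SE 0.804, adjusted p = 0.00227 by limma), with high-cholesterol replicate 1 just above the lipid-depleted libraries as given above. Ugt303B3 rose there by 0.72 (adjusted p = 0.0146), from 83.2, 116 and 96.8 to 165, 181 and 142. Tmem131 rose by 0.85 (adjusted p = 0.0439) and CG5849 fell by 0.43 (adjusted p = 0.0420), and these calls held under 4 and 5 of 13 settings. The calls in Ugt303B3, CG2493 and CG9815 held under 8, 8 and 9. Their adjusted p reached 0.189, 0.0753 and 0.223 by limma.

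The strains were also compared with each other. The tests use the 12 strain libraries that the rule used. The rule set no order between the strains but held each library below control, which caps the higher strain, so these differences are not free of the choice of genes. Hr96[2x] was higher than Hr96[1] in 7 of 60 genes in the anterior midgut, against 4.21% of all tested genes, and lower in 2, against 5.37% (9.59% in all), by limma at an adjusted p under 0.05. Posterior Hr96[2x] was higher in 9, against 5.29%, and lower in 5, against 5.45% (10.7% in all). The median log2 difference over the 60 genes was 0.19 anterior and 0.00 posterior, against 0.00 and −0.01 over all genes. Of the 15 genes called in either region 8 were called in both, with no share over all tested genes given for these counts. On FPKM as deposited the splits were 4 higher and 3 lower anterior and 6 higher and 3 lower posterior. The posterior count was 8 without Hr96[1] replicate 3 and 9 without Hr96[2x] replicate 2. The muscle and enteroendocrine marker sums given above also differ between the strains, and their part was not tested.

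CG11893 and CG7900 differed most. CG11893 was higher in Hr96[2x] by 6.73 (SE 0.419, adjusted p = 9.61e-11) anterior and 4.09 (SE 0.419, adjusted p = 4.37e-07) posterior, by limma. CG7900 was higher by 4.89 (SE 0.247, adjusted p = 1.33e-12) and 3.29 (SE 0.247, adjusted p = 3.44e-09). Both genes were at 32.9% to 45.1% of control in Hr96[2x], so the higher strain was still under control. Pepck2 was higher in Hr96[2x] by 2.16 in the posterior midgut (SE 0.289, adjusted p = 1.89e-05 by limma).

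CG14695, CG44098 and CG17264 were also higher in Hr96[2x] in both regions. CG14695 (chr3R:10878204-10879319) was 2.28, 0.987 and 1.07 in anterior Hr96[1] and 8.25, 4.30 and 8.45 in Hr96[2x], with 11.9 to 14.1 in control. The difference was 1.70 (adjusted p = 7.57e-05) anterior and 1.29 (adjusted p = 0.00137) posterior, by limma. CG14695 overlaps Sodh-2 on the opposite strand. CG17264 was 2.15, 7.71 and 7.17 in anterior Hr96[1] and 18.7, 17.4 and 15.4 in Hr96[2x], with 19.0 to 28.3 in control, so Hr96[2x] reached close to the lowest control library. CG5849 was higher in Hr96[2x] by 0.63 (adjusted p = 0.00273) anterior and 0.93 (adjusted p = 3.16e-05) posterior.

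CG10000 and Ugt303B3 went the other way in both regions. CG10000 was 29.6, 18.6 and 16.3 in anterior Hr96[1] and 7.57, 2.70 and 3.90 in Hr96[2x]. Its difference was −2.02 (SE 0.261, adjusted p = 1.19e-05) anterior and −1.92 (SE 0.261, adjusted p = 2.2e-05) posterior, by limma. Ugt303B3 was 62.6, 82.9 and 74.9 in anterior Hr96[1] and 26.2, 33.5 and 24.2 in Hr96[2x]. Its difference was −1.37 (adjusted p = 2.21e-05) anterior and −0.94 (adjusted p = 0.00137) posterior, by limma. Posterior CG31955 and CG10126 were also lower in Hr96[2x], by −0.76 (adjusted p = 0.0161) and −1.08 (adjusted p = 0.0227). These calls held in 9 and 8 of 13 settings, with an adjusted p of up to 0.203 and 0.278 by limma. No strain was the lower one throughout: by group mean Hr96[1] was lower in both regions in 27 of the 60 genes and Hr96[2x] in 20.

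**Figure D3:**
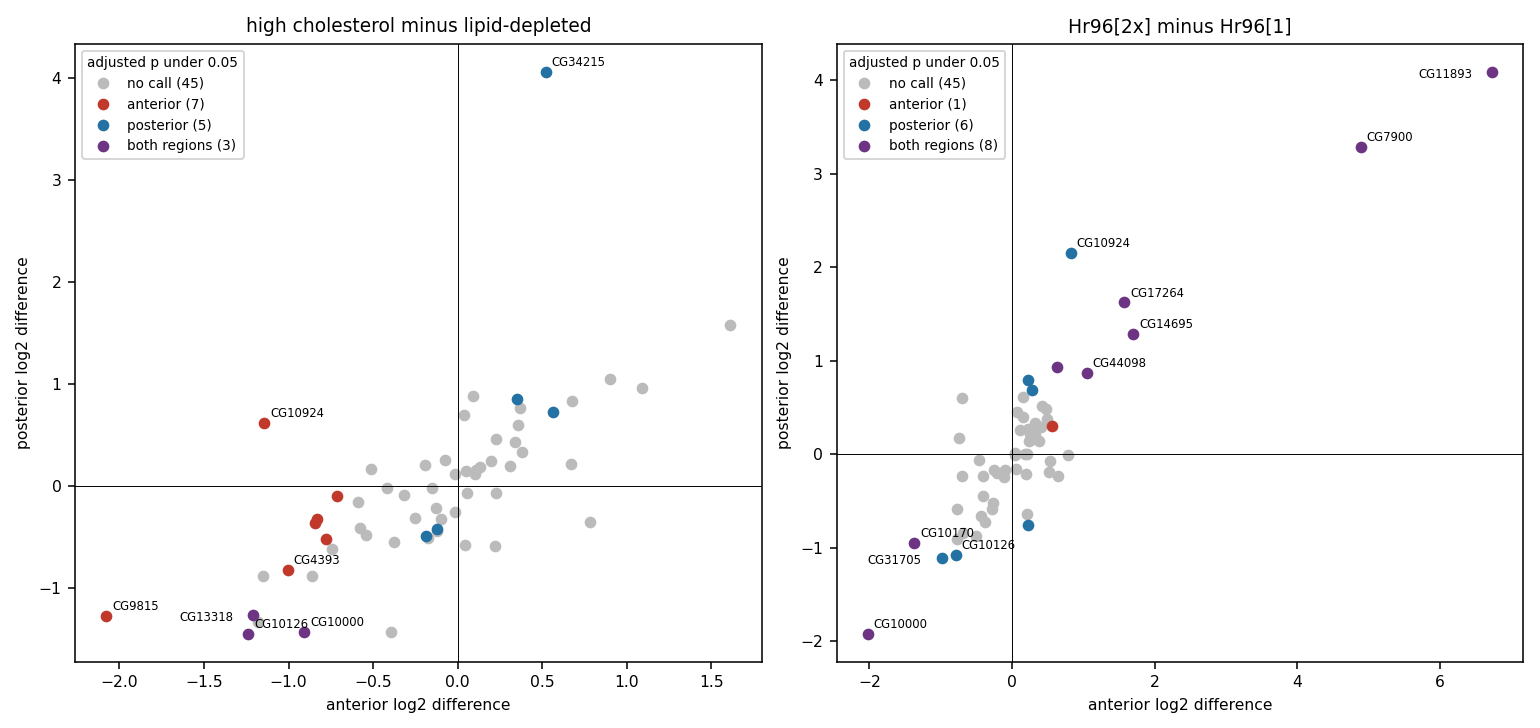
Each point is 1 of the 60 genes, with the anterior log2 difference on the x axis and the posterior one on the y axis, for high cholesterol minus lipid-depleted (left) and Hr96[2x] minus Hr96[1] (right), coloured by region of the call. CG34215 stands alone at 4.06 posterior on the left, and CG11893 and CG7900 lie far up on both axes on the right, while CG10000 lies lowest there.

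Anterior and posterior midgut could be compared on the lipid-depleted and the high-cholesterol diet, whose libraries the rule did not use. The spread behind the p-values again came from all 30 libraries. On the lipid-depleted diet 5 of 60 genes were higher in the posterior midgut, against 5.41% of all tested genes, and 9 lower, against 6.92% (12.3% in all). On high cholesterol 6 were higher, against 8.66%, and 11 lower, against 8.77% (17.4% in all). Calls were made on both diets in 10 genes and on either in 21, with no share over all tested genes given for these counts. On FPKM as deposited the median of all genes shifted by 0.35 and 0.61, and the splits were 12 higher and 6 lower and 30 higher and 7 lower. Without anterior lipid-depleted replicate 1 the lipid-depleted count was 9. With the compared groups alone the splits were 7 higher and 8 lower on the lipid-depleted diet. They were 4 higher and 8 lower on high cholesterol.

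CG10505 and CG31705 were anterior genes. CG10505 was lower in the posterior midgut by −3.11 (SE 0.352, adjusted p = 1.54e-06) on the lipid-depleted diet and −2.98 (SE 0.352, adjusted p = 8.8e-07) on high cholesterol, by limma. CG31705 was 140, 165 and 155 anterior and 25.9, 21.7 and 23.4 posterior on the lipid-depleted diet. Its difference was −2.65 (SE 0.327, adjusted p = 5.05e-06) there and −3.26 (SE 0.327, adjusted p = 6.76e-08) on high cholesterol. CG11672 was lower in the posterior midgut by −3.60 (adjusted p = 0.00392) on the lipid-depleted diet, where 1 anterior library stood at 17.0 and the others at 153 and 158. CG31793 was lower by −1.21 (adjusted p = 0.00431) and −2.34 (adjusted p = 7.21e-07).

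CG11891, CG10559 and CG11893, the members on the ecdysteroid kinase-like list, were also anterior. CG11891 (chr3R:25270231-25273267) was lower in the posterior midgut by −2.07 (SE 0.396, adjusted p = 0.000957) on the lipid-depleted diet and −2.52 (SE 0.396, adjusted p = 4.67e-05) on high cholesterol, by limma. CG10559 was lower by −1.88 (adjusted p = 0.0145) and −2.92 (adjusted p = 0.000135), and CG11893 by −1.41 (adjusted p = 0.0281) and −2.23 (adjusted p = 0.000406). All 3 were called on both diets. Some other genes of the list were also lower in the posterior midgut, but on each diet most of its tested genes were not called. Of its 41 tested genes, 15 were lower and 0 higher in the posterior midgut on the lipid-depleted diet. On high cholesterol 17 were lower and 1 higher. Of all tested genes 6.92% were lower and 5.41% higher on the lipid-depleted diet, and 8.77% and 8.66% on high cholesterol.

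CG42335, CG11125, CG11658 and Pepck2 were posterior genes. CG42335 was 118, 97.0 and 94.0 anterior and 280, 309 and 228 posterior on the lipid-depleted diet. Its difference was 1.39 (SE 0.306, adjusted p = 0.00335) there and 2.04 (SE 0.306, adjusted p = 2.45e-05) on high cholesterol, by limma. CG11125, which overlaps fa2h on the opposite strand, was higher in the posterior midgut by 1.00 (adjusted p = 0.000957) and 1.24 (adjusted p = 3.64e-05). CG11658 was higher by 0.67 (adjusted p = 0.0467) and 1.18 (adjusted p = 0.000339). Pepck2 was higher by 2.44 on high cholesterol (SE 0.289, adjusted p = 9.09e-07 by limma) and was not called on the lipid-depleted diet. CG42458 and CG42363 were higher in the posterior midgut on the lipid-depleted diet, by 0.95 (adjusted p = 0.00873) and 0.62 (adjusted p = 0.0415). The CG42363 call held in 6 of 13 settings, with an adjusted p of up to 0.158 by limma. Of the 60 genes, 33 were called in at least 1 of the 6 comparisons of diets, strains and regions, against 35% of all tested genes, and 27 in none of them. The strain comparisons among these 6 use libraries that chose the genes, and the spread in all 6 came partly from such libraries.

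Whether a difference between groups itself differed between the regions was tested as well. For high cholesterol minus lipid depletion 1 of 60 genes, Pepck2, had a higher difference in the posterior midgut, against 0.552% of all tested genes, and 0 a lower one, against 0.276% (0.828% in all), by limma at an adjusted p under 0.05. At an unadjusted p under 0.05, 3 were higher and 1 lower, with no share over all tested genes taken at that threshold. For Hr96[2x] minus Hr96[1] 2 genes, CG7900 and CG11893, had a lower difference in the posterior midgut, against 0.3%, and 0 a higher one, against 0.348% (0.648% in all). At an unadjusted p under 0.05, 3 were lower and 2 higher, again with no such share. The diet difference in Pepck2 thus had opposite signs in the regions, −1.14 (adjusted p = 0.0191 by limma) anterior and 0.62 posterior, where it was not called. The call of the difference between regions in Pepck2 was lost with the replicate number as a block (adjusted p = 0.0503 by limma) and held in 6 of 19 settings. Those in CG7900 and CG11893 held in 8 of 19 each. The rule capped Hr96[2x] below the control libraries of each region, so these 2 calls are not free of the choice of genes.

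In the genome 24 of the 60 genes (40%) lie on chromosome arm 3R, against 25.4% of the 3564 tested CG genes. Arm 2R holds 16 (26.7% against 20.03%), 2L holds 11 (18.3% against 17.5%), 3L holds 7 (11.7% against 19.7%) and X holds 2 (3.33% against 16.9%). Of the 74 genes with another kind of name that met the same numbers, 25.7% lie on 3R, 40.5% on 2R and 13.5% on X. Of the 31 CG genes of the mirrored rule, 32.3% lie on 3R and 16.1% on X. Hr96 lies on 3R. Within 500 kb of it lie 4 of the 60 genes (6.67%), against 77 of the tested CG genes (2.16%). They are CG13654, 180 kb from Hr96 between gene centres, CG11891 at 244 kb, CG11893 at 263 kb and CG10559 at 288 kb. CG31089 lies 876 kb away. Stretches of chromosome that differ between the strains and y[1]w[1] beside the allele cannot be told apart from it here.

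The 3 genes at 244 to 288 kb belong to a cluster of ecdysteroid kinase-like genes, which was looked at after the values were seen. The cluster holds 23 tested genes of that list within 500 kb of Hr96, and they did not move one way. The Hr96[1] mean was above control in both regions in 13 of them and below it in 10. For Hr96[2x] it was above in 12 and below in 10. CG11892 stood at 102 in anterior Hr96[1] and 4.35 in Hr96[2x] against 1.27 in control, and CG10513 at 46.0 and 5.57 against 4.28. CG31104 stood at 126 and 197 against 345, and CG31087 at 328 and 316 against 630. In Hr96[1], CG11893 was thus near 0 while CG11892, another gene of the cluster, was far above its control level. These genes are close relatives, and reads shared between copies could have been split among them.

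**Figure D4:**
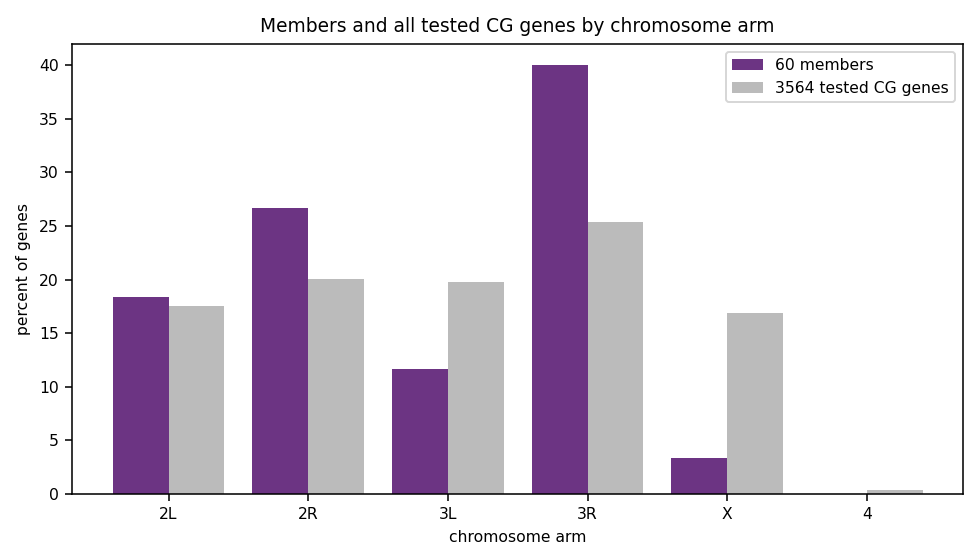
Percent of genes on each chromosome arm, for the 60 members (purple bars) and for all 3564 tested CG genes (grey bars). Arm 3R holds 40% of members against 25.4% of tested CG genes, and X holds 3.33% against 16.9%.

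Members rarely stood side by side. CG42363 and CG42364 overlap on 2R, CG32054 lies 1.01 kb from CG42825 on 3L, and CG11125 lies 9.69 kb from CG11141 on 2R. CG32054 was 175, 123 and 116 in anterior control, 39.1, 64.5 and 62.9 in Hr96[1], and 50.3, 70.8 and 67.6 in Hr96[2x], so it fell to 42.9% of control where its neighbour CG42825 fell to 4.57%. CG11125 and CG11141 stood at 37.3% and 35.6% of control in the anterior midgut and at 48.3% and 39.8% in the posterior midgut. Next to members lie 116 genes that passed the filter on low values and are not members, and 4 of them met the same numbers. In the 92 of them with a control mean of at least 2 in both regions, the median strain mean was 96.3% of control anterior and 95.4% posterior. The 4 are fa2h, hng3, Sodh-2 and cutlet. CG11125 overlaps fa2h and CG14695 overlaps Sodh-2 on the opposite strand, and the kit does not mark strand. The strain mean was 41.2% of control anterior and 46.6% posterior for fa2h, and 19.8% and 21.1% for Sodh-2. Control means of fa2h were 101 and 174, against 24.6 and 38.7 for CG11125. Of the 60 genes, 30 overlap another annotated gene, 25 of them one on the opposite strand.

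Lists of related genes held few of the 60. The rule takes only genes with a CG number as their name, so most genes of sterol transport and handling, such as the Npc1 and Npc2 families and magro, could not be members whatever their values. Of the 16 on that list, 1 met the same numbers, LpR2, a lipophorin receptor, named here after its values were seen. LpR2 stood at 45.4, 32.5 and 40.9 in anterior control, at 9.11 to 21.9 in Hr96[1] and at 12.9 to 16.7 in Hr96[2x]. Its strain mean was 36.3% of control anterior and 37.5% posterior. The list of 23 digestive lipases holds 1 member, CG31089, and the list of 31 digestive serine proteases that carry no name holds none. The list of genes described as ecdysteroid kinase-like, 46 found and 41 tested, holds 3, CG11891, CG11893 and CG10559. The files and the annotation used here give these CG genes no function, and the list names rest on general knowledge of the families. Among the 41 tested, Hr96[2x] was higher than Hr96[1] in 4 and lower in 2 in the anterior midgut, against 4.21% and 5.37% of all tested genes, by limma at an adjusted p under 0.05. In posterior libraries it was higher in 4 and lower in 5, against 5.29% and 5.45%. CG11891 was 237, 235 and 220 in anterior control, 117, 78.6 and 83.0 in Hr96[1], and 39.8, 70.3 and 95.3 in Hr96[2x]. It overlaps CG11889, another gene of the list.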

How the data were processed

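The deposited tables, 1 per library, hold gene FPKM with confidence limits and a status for each estimate, per the file headers. Per the submitters' processing notes, the authors used bcl2fastq 2.17.1.14, TopHat2 2.1.1 with Bowtie2 2.2.9, and Cufflinks 2.2.1, with dm6 and BDGP6. The TruSeq kit named in the labels does not mark strand, and how reads that match several places were counted was not given in the sources used here. FPKM is a share of a library, so a few abundant genes lower all others.

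Here 103 genes with a failed estimate were left out, and a median-of-ratios factor for each library came from 8584 genes above 0 throughout (0.537 to 1.20 anterior, 1.03 to 1.45 posterior). Levels were divided by it and put on the log2 scale after adding a pseudocount of 1. Genes whose scaled FPKM averaged 1 or more, 8335 including all 60 members, were fitted with limma 3.58.1 in R 4.3.3 on 10 group means with a trend, with 2-sided tests. P-values were adjusted by Benjamini-Hochberg within each comparison, and a call needs an adjusted p under 0.05. The test was checked on simulated data. Python 3.11.15, pandas 2.3.3 and matplotlib 3.10.9 were used. No 2 libraries held identical values. The smallest control value of a member corresponded to 13.0 fragments as implied by its confidence limits.

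The members and gene lists were chosen with earlier results of these data known. Genes are named by rule: the 8 largest falls, the 6 highest control means, members at 0 in at least 6 strain libraries, up to 4 called members per direction and comparison, members within 10 kb of each other, the 2 genes on each side of the limit, up to 3 extremes per diet, and listed members. Names outside it were chosen after their values were seen. Same-numbered samples deviated together in every pair, with correlations above 0.1, between the strains in the anterior midgut (0.143 to 0.318) and between regions on the lipid-depleted diet (0.200 to 0.388), and not in the other 4 comparisons. Positions are those deposited (dm6), counted from 1. For 58 of 60 members they equal the annotation used. Marker lists for copper cells, hemocytes, hindgut and trachea held 0, 0, 0 and 1 tested genes, and the ovary, fat body and stem cell lists no member. Alternatives tried were other pseudocounts (0.1 and 5), FPKM as deposited, no filter, the compared groups alone, a replicate block and leaving out each library.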

Additional observations from a re-analysis of the deposited data

Results flagged for a closer look

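In 3 genes the same contrast differed between the regions by a test of the difference itself, by limma over all 8335 genes, a test added after the data were seen. Pepck2 (CG10924) had a high-cholesterol minus lipid-depleted difference that was 1.76 higher in the posterior than in the anterior midgut (SE 0.409, adjusted p = 0.0359). It was 13.7 ± 6.90 against 28.6 ± 3.18 (SD, n = 3) in the anterior midgut, and 72.1 ± 11.7 against 46.2 ± 1.25 in the posterior midgut. The call held under 6 of 19 settings. Of all tested genes 0.828% were called in this comparison.

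For Hr96[2x] minus Hr96[1] the difference was smaller in the posterior than in the anterior midgut for CG7900, by −1.60 (SE 0.349, adjusted p = 0.0254), and for CG11893, by −2.64 (SE 0.593, adjusted p = 0.0325). Both genes lay near 0 in Hr96[1] in both regions, and both were higher in the anterior than in the posterior midgut of Hr96[2x], at 52.2 ± 10.2 against 20.03 ± 3.87 for CG7900 and 138 ± 14.4 against 33.5 ± 26.8 for CG11893. Each call held under 8 of 19 settings, against 0.648% of all tested genes called. On the log2(scaled FPKM + 1) scale a gene near 0 in one strain shows a larger difference where its level in the other is higher. The rule also held every Hr96[2x] library below the lowest control library of its region. That limit was 81.6 anterior and 46.6 posterior for CG7900, and 349 and 73.0 for CG11893. It was lower in the posterior midgut for both genes, so this test is not free of the choice of genes.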

How the results depend on the processing

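Calls of members per comparison moved with the settings as follows. High cholesterol against lipid depletion called 10 members in the anterior midgut, and 28 on FPKM as deposited, 6 with no filter, 5 with the compared groups alone and 2 to 12 with 1 library left out (6, 4 and 2 without lipid-depleted replicates 1, 2 and 3, and 4 and 2 without high-cholesterol replicates 2 and 3). In the posterior midgut it called 8, and 16 as deposited and 4 to 10 with 1 library left out (5 and 4 without lipid-depleted replicates 2 and 3, and 4 without high-cholesterol replicate 2). The strains differed in 9 members anterior, and 5 with the groups alone, and in 14 posterior, and 9 as deposited, 6 with the groups alone and 8 to 14 with 1 library left out. The regions differed in 14 members on the lipid-depleted diet, and 9 to 12 with 1 library left out, and in 17 on high cholesterol, and 37 as deposited. With the replicate block the 6 counts were 12, 11, 9, 16, 14 and 22. Of the named calls the block changed 1, the region difference of Pepck2 (adjusted p = 0.0503). The rule found 60 genes, 24 at 33.3% of control, 85 on FPKM as deposited (57 shared), 64 with upper-quartile scaling (59 shared), 42 with a control mean of at least 10, and 67 to 74 with 1 replicate number left out (48 to 58 shared). Both diets lay above both strains in 30 genes, and 19 as deposited. High cholesterol lay above control in 1 gene anterior, and 0 as deposited and 6 without control replicate 1, and in 1 posterior, and 5 without control replicate 1. For these diet counts no share over all tested genes is given at the other settings. Of 646 alternative values of single genes 524 kept their call or size, 93 lost the call, 29 moved and 0 reversed, and 24 of 44 tested results kept their call throughout.

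The 3 libraries per group, unknown depth and an unstranded kit limit these values, and members overlapping other genes or with close relatives are uncertain. Causes of the changes between settings were not tested.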
